A study of Mus musculus with 4 samples.

Results

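The genes described here are 10 feedback and target genes of the transcription factor NF-kB: NFKBIA, NFKBIZ, TNFAIP3, NFKB1, NFKB2, RELB, BIRC3, TRAF1, BCL3 and ICAM1. They were chosen by name from the 33538 human genes of the count files, and their levels were read in barcodes with more than 50% of unique molecular identifiers (UMIs) on human genes. All 10 had at least 1 UMI in each of the 4 libraries. The study sequenced the RNA of single human CD45+ cells (CD45 marks white blood cells) from huNSG-SGM3 mice, immunodeficient mice that carry a human immune system, by droplet-based 3′ scRNAseq. It asked how human immune cells in blood respond to surgery and to spinal cord injury (SCI), and how cells in the injured cord differ from those in blood.

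Naïve blood came from male hosts with no treatment, sham blood from male hosts 7 days after T9 laminectomy, and SCI blood and SCI cord from pooled male and female hosts 7 days after T9 spinal cord injury. Every host was 15 weeks old by the labels, and all were NOD.Cg-Prkdcscid, IL2rgtm1Wjl mice that carried Tg(CMV-IL3,CSF2,KITLG)1Eav/MloySzJ. This strain lacks mouse lymphocytes and expresses human IL3, CSF2 and KITLG from a CMV promoter, so that the naïve controls carry these cytokines too. The human cells arose from CD34+ stem cells given to irradiated pups, and the mouse's own myeloid cells remained. Cells of different animals were pooled in a library, and the number of animals in each is not given in the sources used here. Host sex and SCI cannot be told apart in the blood comparisons.

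NF-kB is a family of dimers that inhibitor proteins hold in the cytoplasm of resting cells. Signals from tumour necrosis factor, Toll-like and antigen receptors lead to the breakdown of the inhibitors, and the freed dimers move to the nucleus and switch on inflammatory genes. Among the first genes switched on are those that end the signal, so that feedback inhibitors such as NFKBIA and TNFAIP3 are commonly read as a record of recent NF-kB activity in white blood cells.

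After filtering, 6328 cells of naïve blood, 4659 of sham blood, 5939 of SCI blood and 118 of SCI cord were kept, with a median of 3699, 5234, 4656 and 9331 human UMIs per cell. At most 10 cell barcodes were shared between any 2 libraries. Cells were clustered without the genes described here and grouped into 11 classes by marker genes, named with "-like" because the names rest on markers alone. The naïve T-like class had none of its own markers among its 10 leading genes, nor had the smaller clusters of the CD4 T-like and B-like classes. The eosinophil-like class was led by CLC and had 1 (EPX), and 13 cells led by CSF2 and XCL2 stayed unnamed. Naïve blood held 380 plasma-like cells, against 0 in sham and 2 in SCI blood, and SCI blood held 18 monocyte-like cells, against 140 in naïve and 91 in sham blood. These class counts are given because results below turn on them.

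Levels are CPM, in which a gene's counts are divided by all UMIs of the library's human cells (ribosomal and mitochondrial genes left out) and scaled to the same fixed total in every library, with exact Poisson 95% intervals. With 1 library per group there is no test between conditions. Differences are log2 ratios of CPM with 95% binomial intervals, which cover counting error only and not the spread between mice or between cells. A difference was called higher or lower when the log2 ratio was at least 0.5 in size, the interval left out 0 and the 2 libraries held at least 20 counts together. No gene's level is compared with another gene's.

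NFKBIA encodes IkBalpha, the inhibitor that captures NF-kB and is resynthesised after each pulse of activity. Its level was 168 CPM (162 to 173) in naïve, 159 CPM (153 to 164) in sham and 166 CPM (161 to 171) in SCI blood, and 538 CPM (495 to 584) in SCI cord. The 3 blood libraries lay within a narrow band and the cord was above all of them. NFKBIZ encodes IkBzeta, a nuclear co-factor of NF-kB needed for secondary response genes. It stood at 28.5 CPM in naïve, 32.7 CPM in sham and 33.0 CPM in SCI blood and at 129 CPM (108 to 153) in cord, the same order of blood and cord as NFKBIA.

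TNFAIP3 encodes A20, a ubiquitin editor that shuts off signalling upstream of the inhibitors. Naïve blood had 50.2 CPM (47.3 to 53.2), below the 75.0 CPM (71.3 to 78.8) of sham blood and the 79.5 CPM (75.8 to 83.3) of SCI blood. The cord had 124 CPM (104 to 147). For TNFAIP3 the interval of naïve blood thus lay below those of both operated groups. It did so for NFKB1 too (81.5 to 89.2 CPM in naïve, 93.4 to 102 CPM in sham, 102 to 110 CPM in SCI blood). The plasma-like cells of naïve blood bear on the TNFAIP3 value, as given below. The NFKB1 difference also depended on the processing. Its log2 ratio of sham over naïve blood was 0.20, and at the lowest of 14 alternatives 0.02, with each cell thinned to 1000 UMIs. For SCI over naïve blood it was 0.31, and at the lowest 0.03, with equal class weights. BCL3, an atypical inhibitor that works with p50 and p52 dimers in the nucleus, had 15.5, 16.3 and 12.9 CPM in naïve, sham and SCI blood and 30.2 CPM (20.6 to 42.6, from 32 counts) in cord.

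The subunit genes differed less. NFKB1, which encodes p105 and p50, had 85.3, 97.7 and 106 CPM in naïve, sham and SCI blood and 92.3 CPM (75.0 to 113) in cord. NFKB2, which encodes p100 and p52 of the alternative pathway, had 47.6, 52.3 and 57.1 CPM in the same order and 49.0 CPM (36.6 to 64.3) in cord. For RELB, the partner of p52, the levels were 47.4, 42.0 and 42.1 CPM in blood and 48.1 CPM (35.8 to 63.2) in cord. For each of these 3 genes the interval of the cord overlapped that of at least 1 blood library.

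BIRC3 encodes cIAP2, a ubiquitin ligase that protects cells from death downstream of tumour necrosis factor receptors. It had 298, 322 and 295 CPM in naïve, sham and SCI blood and 448 CPM (408 to 490) in cord. TRAF1, an adaptor that binds cIAP proteins and is induced in activated lymphocytes, had 52.8, 64.4 and 51.7 CPM in blood, highest in sham, and 58.4 CPM (44.8 to 74.9) in cord. ICAM1, the adhesion molecule that binds the integrin LFA-1, was sparse, with 131 counts in naïve blood, 131 in sham blood and 55 in SCI blood. These gave 5.94 CPM (4.96 to 7.04), 6.35 CPM (5.31 to 7.53) and 2.55 CPM (1.92 to 3.31). The cord had 33 counts of ICAM1, or 31.1 CPM (21.4 to 43.7).

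**Figure D1:**
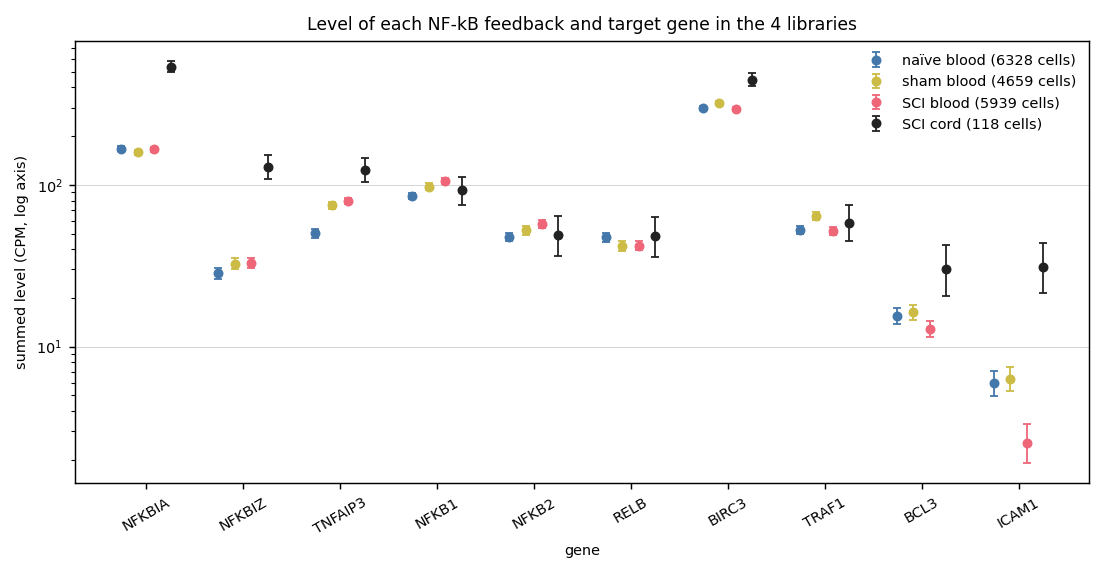
Summed level in CPM (log axis) of each of the 10 genes in the 4 libraries, with exact Poisson 95% intervals that cover counting error only. NFKBIA, NFKBIZ, TNFAIP3, BIRC3, BCL3 and ICAM1 are highest in SCI cord, TNFAIP3 is lower in naïve blood than in sham or SCI blood, and ICAM1 is lowest in SCI blood.

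Free RNA made up little of these values. Barcodes of mouse cells (at most 10% human UMIs) hold human RNA only as background, and their UMIs per barcode of each member were at most 1.76% of those in human cells of the same library. With each cell thinned to 1000 UMIs, a UMI of NFKBIA was found in 12.4% of cells of naïve blood, 10.5% in sham and 11.3% in SCI (unthinned 36.0%, 40.5% and 37.6%). In cord it was found in 26.3% of cells (exact binomial interval 18.6% to 35.2%, unthinned 59.3%). For comparison, an NFKBIA UMI was present in 5.43% of the mouse barcodes of the cord and in 0.215% (naïve), 0.358% (sham) and 0.494% (SCI) of those of blood. These barcodes held a median of 42.5 human UMIs in cord and 15, 20 and 20.5 in blood. For BIRC3 the thinned shares were 21.2%, 21.1% and 18.7% in blood and 25.4% (17.9% to 34.3%) in cord, so that the intervals of cord and naïve blood overlapped.

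Within blood the genes fell into different orders over 9 cell classes. In what follows a class is given by the range of its CPM over the 3 blood libraries, and neighbours in an order are said to overlap when these ranges do. NFKBIA was highest in monocyte-like cells (331 to 336 CPM), then in CD8 T-like cells (206 to 253 CPM), and the other 7 classes overlapped with their neighbours down to cycling cells (121 to 147 CPM). Monocyte-like cells also led for NFKBIZ (79.8 to 123 CPM), followed by B-like cells (43.6 to 64.5 CPM), and basophil- or mast-like cells were lowest (3.72 to 10.3 CPM). ICAM1 was most confined of the 10: monocyte-like cells had 39.9 to 76.5 CPM, basophil- or mast-like cells had 10.3 to 19.9 CPM, and each of the other 7 classes had at most 5.41 CPM in any blood library.

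TNFAIP3 and TRAF1 were highest in T-like classes. TNFAIP3 ranged from 105 to 128 CPM in CD8 T-like and from 90.4 to 113 CPM in regulatory T-like (Treg-like) cells, which overlapped, and from 10.8 to 18.6 CPM in basophil- or mast-like cells, below all others. TRAF1 was highest in Treg-like cells (89.4 to 113 CPM), then in CD4 T-like cells (74.0 to 82.9 CPM). In B-like (12.8 to 25.2 CPM), monocyte-like (5.13 to 22.8 CPM) and basophil- or mast-like cells (3.72 to 8.27 CPM) TRAF1 was low.

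B-like cells led for the alternative pathway and for BIRC3. NFKB2 ranged from 89.0 to 121 CPM in B-like cells and from 45.6 to 75.6 CPM in monocyte-like cells, the next class. RELB was 77.4 to 79.9 CPM in B-like cells, and monocyte-like cells (22.8 to 78.2 CPM) overlapped with them. BIRC3 was 582 to 644 CPM in B-like and 422 to 567 CPM in Treg-like cells, and every other class was at or below 365 CPM. NFKB1 was highest in CD8 T-like (136 to 173 CPM) and naïve T-like cells (132 to 139 CPM), which overlapped, and lowest in basophil- or mast-like cells (34.3 to 59.6 CPM). BCL3 was highest in monocyte-like cells (22.8 to 37.7 CPM), but overlapped with CD4 T-like cells (16.6 to 24.2 CPM).

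**Figure D2:**
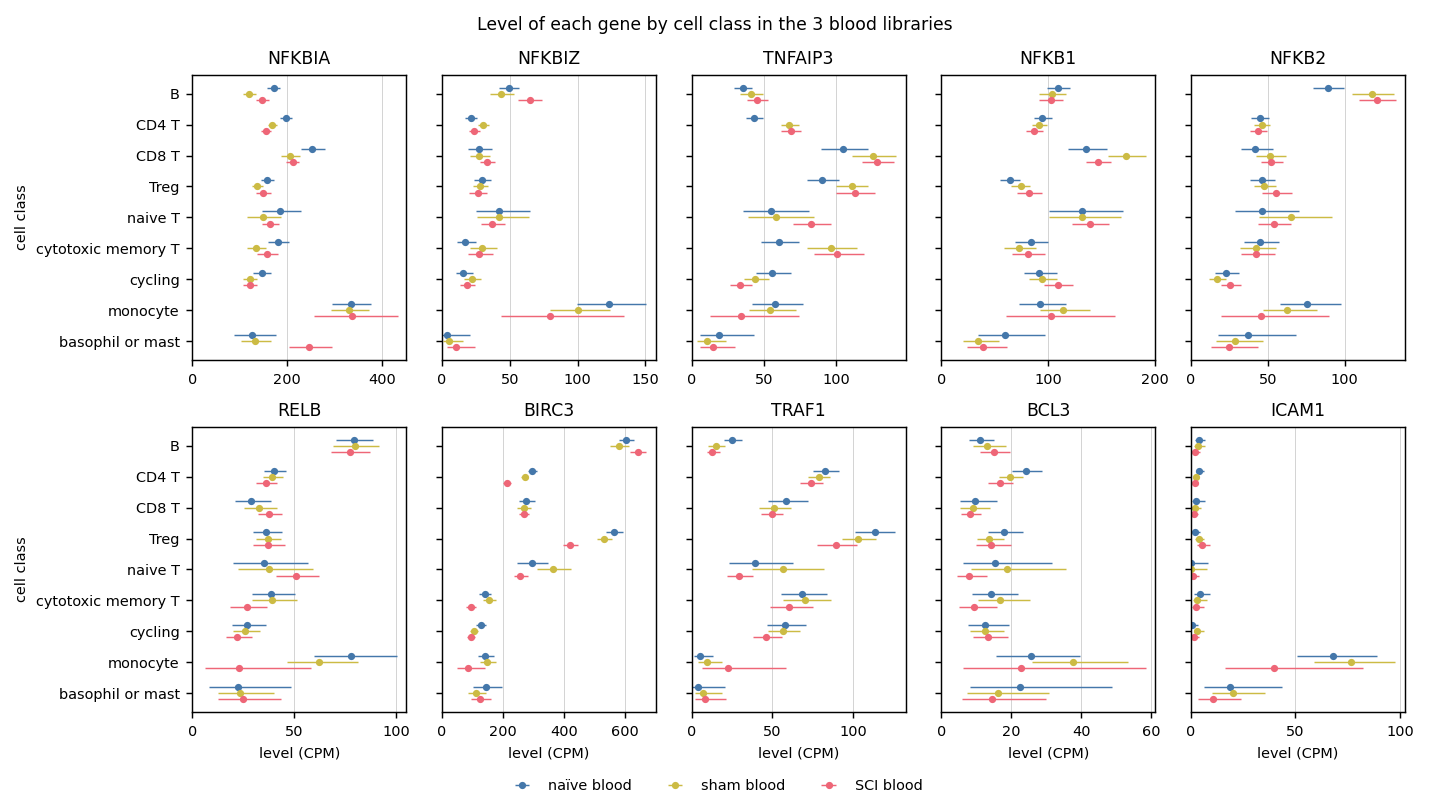
Level in CPM of each gene (1 panel each) in 9 cell classes of naïve, sham and SCI blood, with exact Poisson 95% intervals. ICAM1 and NFKBIZ are highest in monocyte-like cells, NFKB2 and BIRC3 in B-like cells, TRAF1 in Treg-like cells, and the 3 blood libraries mostly lie close together within a class.

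Over the 27 class-by-library profiles of at least 50 cells in blood, the pair with the highest Pearson correlation was NFKB2 and RELB (r = 0.80) and the pair with the lowest was TRAF1 and ICAM1 (r = −0.64). The non-member genes whose profile was most like the mean of the 10 were TMOD2 (r = 0.90), CBL (r = 0.89), MAP3K1 (r = 0.88), CHD1 (r = 0.87) and NCKAP1L (r = 0.87), among 7506 genes ranked over the same 27 profiles. These correlations describe the profiles, which share libraries and classes, and carry no test.

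The first comparison asked how blood cells differ after laminectomy. Of the 10 genes, TNFAIP3 was called higher in sham than in naïve blood (log2 ratio 0.58, interval 0.47 to 0.69) and none was called lower, while over all genes tested 5.18% were called higher and 5.42% lower. The other 9 log2 ratios lay between −0.17 (RELB) and 0.29 (TRAF1), against a median of 0.07 over all genes. TNFAIP3 was low in plasma-like cells (18.6 CPM), nearly all of which were in naïve blood. Without plasma-like cells its ratio was 0.38 (0.26 to 0.49) and it was no longer called, nor was it with equal class weights (0.33) or mean per-cell CPM (0.50, just under the fold), and within the 5 T-like classes pooled it was 0.44 (0.31 to 0.57).

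Within single classes the same comparison gave 4 higher and 2 lower of 78 member-by-class pairs, where 2.3% and 3.45% of all gene-by-class pairs were called. TNFAIP3 rose in CD4 T-like cells from 43.4 to 67.6 CPM (0.64, interval 0.41 to 0.88) and in cytotoxic memory T-like cells from 60.1 to 96.0 CPM (0.67, interval 0.27 to 1.09). NFKBIZ rose in the same 2 classes, from 21.1 to 30.2 CPM in CD4 T-like cells (0.51, interval 0.17 to 0.87) and from 17.0 to 29.5 CPM in cytotoxic memory T-like cells (0.79, interval 0.03 to 1.60). In the CD8 T-like and Treg-like classes no member was called.

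In B-like cells the inhibitor NFKBIA fell from 172 CPM in naïve to 119 CPM in sham blood (−0.52, interval −0.73 to −0.32), and TRAF1 fell from 25.2 to 14.8 CPM (−0.76, interval −1.37 to −0.20). B-like cells were made of 2 clusters, and the smaller, led by MPP6 and SCIMP, held 290 of 1274 B-like cells in naïve but 58 of 572 in sham and 64 of 942 in SCI blood. In the larger cluster alone the sham over naïve ratio was −0.51 (−0.74 to −0.28) for NFKBIA and −0.64 (−1.43 to 0.10) for TRAF1, so that the call for TRAF1 was lost. TNFAIP3, not called over all B-like cells (0.21), was called higher in the larger cluster, from 24.3 CPM in naïve to 42.5 CPM in sham blood (0.81, interval 0.32 to 1.31).

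SCI blood was next set against naïve blood. TNFAIP3 was called higher (0.66, interval 0.55 to 0.77) and ICAM1 lower (−1.21, interval −1.70 to −0.76), where 7.97% of all genes were called higher and 7.68% lower. The ratios of the other 8 lay between −0.27 (BCL3) and 0.31 (NFKB1). With each cell thinned to 1000 UMIs neither call stood, at 0.39 (0.15 to 0.62) for TNFAIP3 and, with the direction turned, 0.36 (−0.69 to 1.43) for ICAM1, which then had a UMI in 0.237% of naïve and 0.303% of SCI blood cells. As for sham, the TNFAIP3 ratio fell short of the call without plasma-like cells (0.46, interval 0.35 to 0.57), as it did with equal class weights (0.35), but within the T-like classes together it was 0.55 (0.42 to 0.68). BCL3 was called lower within those classes (−0.64, interval −0.93 to −0.36, from 19.0 to 12.2 CPM), so that the 2 calls there were TNFAIP3 and BCL3. The T-like classes were mixed differently: CD8 T-like cells, high in TNFAIP3 and low in BCL3, were 646 in naïve and 1434 in SCI blood. The part of this mixture in the 2 pooled values was not tested. This comparison shares the naïve library with the one before, so that the 2 TNFAIP3 values are not independent.

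Part of the ICAM1 counts of blood lay in monocyte-like cells. In naïve blood 53 of 131 ICAM1 counts (40.5%) and in sham blood 65 of 131 (49.6%) lay in monocyte-like cells, which made up 2.21% and 1.95% of the cells. In SCI blood 7 of 55 (12.7%) did, with monocyte-like cells at 0.303% of the cells. The 8 monocyte markers used for naming summed to 2902 CPM in naïve, 2871 CPM in sham and 519 CPM in SCI blood, with none of them at 0. Without monocyte-like cells the SCI over naïve ratio of ICAM1 was −0.70 (−1.26 to −0.17), and within the T-like classes it was −0.53 (−1.26 to 0.19).

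Within classes 3 pairs were higher and 6 lower of 78 for SCI over naïve blood, against 2.75% and 4.28% of all gene-by-class pairs. TNFAIP3 rose in CD4 T-like cells to 68.6 CPM (0.66, interval 0.42 to 0.91) and in cytotoxic memory T-like cells to 101 CPM (0.74, interval 0.35 to 1.15). It fell in cycling cells, from 55.6 to 33.3 CPM (−0.74, interval −1.20 to −0.28). NFKBIA rose in basophil- or mast-like cells, from 127 CPM in naïve to 246 CPM in SCI blood (0.94, interval 0.40 to 1.55, from 34 and 119 counts).

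The lower pairs included BIRC3 in cytotoxic memory T-like cells, which fell from 140 to 95.1 CPM (−0.56, interval −0.89 to −0.23). TRAF1 in B-like cells fell from 25.2 to 12.8 CPM (−0.96, interval −1.53 to −0.43), and in the larger B-like cluster alone the ratio was −0.68 (−1.37 to 0.00 after rounding, below 0). In that cluster TNFAIP3 (0.85, interval 0.41 to 1.33) and BCL3 (0.74, interval 0.01 to 1.54) were called higher, which they were not over all B-like cells. BCL3 (−0.54) and ICAM1 (−1.18, from 20 and 9 counts) fell in CD4 T-like cells. RELB in monocyte-like cells fell from 78.2 to 22.8 CPM (−1.62, interval −3.70 to −0.35), a value that rests on 4 counts in the 18 monocyte-like cells of SCI blood.

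SCI over sham blood sets injury of the cord against surgery without it. ICAM1 was called lower (−1.31, interval −1.80 to −0.85) and no member was called higher, where 5.73% of all genes were called lower and 4.41% higher. The ratios of the other 9 lay between −0.34 (BCL3) and 0.13 (NFKB2), and that of TNFAIP3 was 0.08 (−0.02 to 0.18). With thinned cells the ICAM1 ratio was −0.60 (−1.58 to 0.35) and not called. Without monocyte-like cells the ICAM1 ratio was −0.57 (−1.14 to −0.02), and without monocyte-, eosinophil- and basophil-like cells it was −0.45 (−1.06 to 0.15) and no longer called.

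In single classes 2 pairs were higher and 5 lower of 79, against 3.05% and 3.37% of all pairs. NFKBIA rose in basophil- or mast-like cells from 132 CPM in sham to 246 CPM in SCI blood (0.90, interval 0.47 to 1.34), so that the CPM of SCI blood stood above both other libraries for this gene in this class. The unthinned share of these cells with an NFKBIA UMI was 34.1% in SCI, 33.9% in sham and 25.3% in naïve blood. Their median human UMIs per cell were 3963, 4850.5 and 3119. NFKBIZ rose in B-like cells from 43.6 to 64.5 CPM (0.56, interval 0.22 to 0.91), and by 0.54 (0.18 to 0.92) in the larger B-like cluster alone. BIRC3 fell in cytotoxic memory T-like cells from 155 to 95.1 CPM (−0.70, interval −1.03 to −0.38), in naïve T-like cells from 365 to 258 CPM (−0.50, interval −0.75 to −0.24) and in monocyte-like cells from 148 to 85.5 CPM (−0.75, interval −1.67 to −0.02). TRAF1 in naïve T-like cells (−0.96, interval −1.64 to −0.23) and RELB in monocyte-like cells (−1.30, interval −3.38 to −0.01) were the other 2 that fell. Without the cell of most counts BIRC3 in naïve T-like cells was not called (−0.47), and the other lower pairs stayed called. The monocyte-like values rest on 18 cells of SCI blood. Immediate early and heat shock genes, described below, summed to 20374 CPM in these cells, against 12652 CPM in sham blood. The part of this in the values was not tested.

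**Figure D3:**
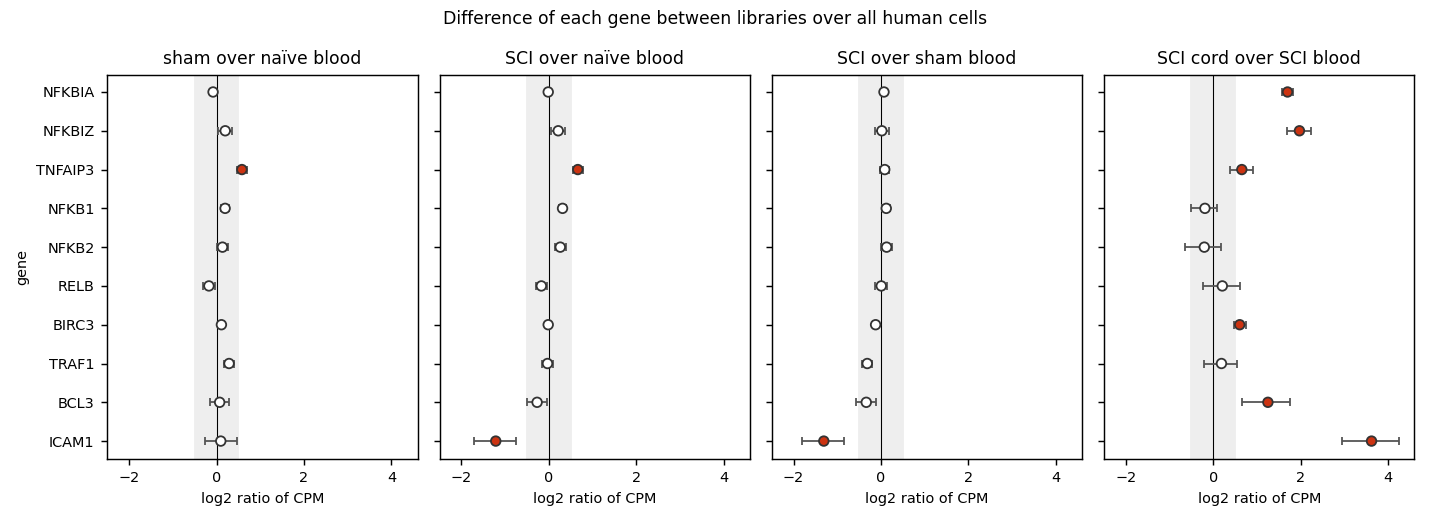
Log2 ratio of CPM of each gene over all human cells for the 4 comparisons, with 95% binomial intervals for counting error; filled points are called, and the grey band marks ratios under 0.5 in size. In blood TNFAIP3 is called higher over naïve and ICAM1 is called lower in SCI, and in cord 6 of the 10 genes are called higher.

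In the injured cord 6 of the 10 genes were called higher than in SCI blood and none lower, where 15.2% of all genes were called higher and 10.6% lower. The 6 were ICAM1 (log2 ratio 3.62, interval 2.94 to 4.26), NFKBIZ (1.97, interval 1.69 to 2.23), NFKBIA (1.70, interval 1.57 to 1.82), BCL3 (1.25, interval 0.65 to 1.76), TNFAIP3 (0.65, interval 0.38 to 0.90) and BIRC3 (0.60, interval 0.46 to 0.74). The subunit genes NFKB1 (−0.19), NFKB2 (−0.21) and RELB (0.21) and the adaptor TRAF1 (0.19) had intervals that included 0. The members' median was 0.63, against −0.01 over all genes tested.

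A cord cell could carry a large part of a gene's counts. One cell held 50 of 571 NFKBIA counts, 70 of 475 BIRC3 counts and 18 of 132 TNFAIP3 counts. With the cell of most counts left out of each library, the ratio stayed called for NFKBIA (1.58), NFKBIZ (1.84), BCL3 (1.17) and ICAM1 (3.56). It was 0.45 (0.16 to 0.72) for TNFAIP3 and 0.41 (0.26 to 0.55) for BIRC3, and neither was then called. With thinned cells 4 genes stayed called, and the intervals of TNFAIP3 (0.62) and ICAM1 (1.93) included 0. BIRC3 was also not called with mean per-cell CPM (0.32), with equal class weights (0.13) or without monocyte-, eosinophil- and basophil-like cells (0.14, interval −0.06 to 0.33).

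The cell classes of cord and blood were not the same mixture. Monocyte-, eosinophil- and basophil- or mast-like cells made up 29.7% of cord cells and 35.5% of the UMIs behind the CPM, against 2.63% and 3.18% in SCI blood. The 8 monocyte markers summed to 14815 CPM in cord with none at 0, the 7 basophil or mast markers to 2667 CPM (282 CPM in SCI blood), and the 6 eosinophil markers to 51.8 CPM with 3 of them at 0. These classes held 57.1% of the NFKBIA, 59.1% of the NFKBIZ, 52.2% of the BIRC3 and 60.6% of the ICAM1 counts of the cord. Of TNFAIP3 they held 20.5%, of NFKB1 21.4% and of TRAF1 1.61%. The 5 T-like classes, with 65 of the 118 cord cells, held 71.0% of the TRAF1 and 53.8% of the TNFAIP3 counts.

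**Figure D4:**
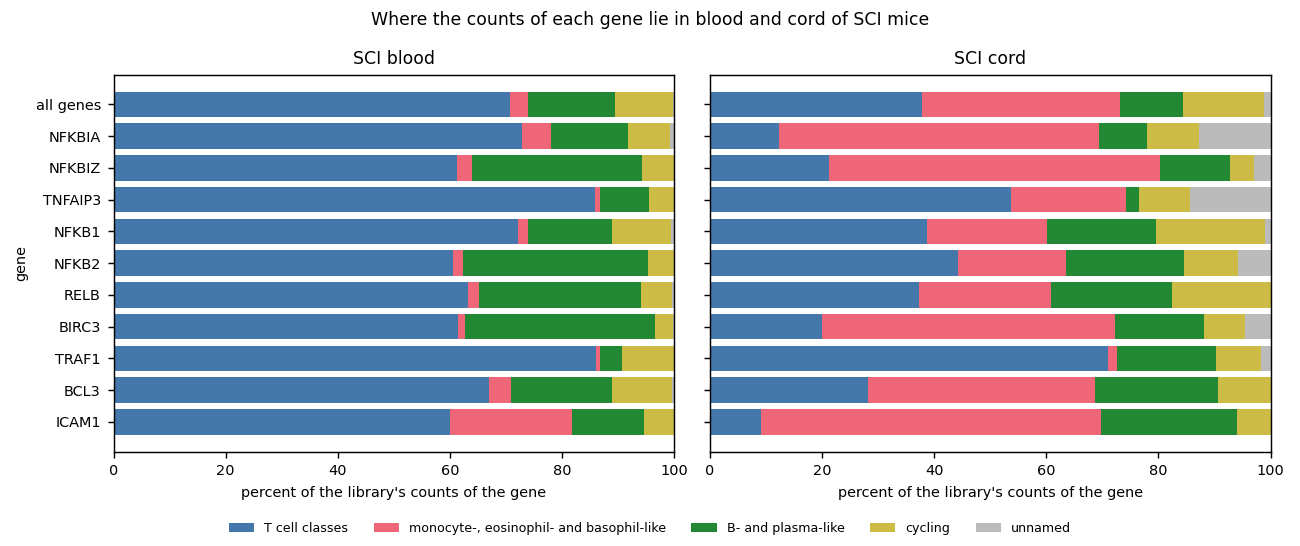
Percent of each library's counts of a gene (and of all genes, ribosomal and mitochondrial ones left out) in 5 sets of cell classes, for SCI blood (left) and SCI cord (right). In cord more than 50% of the NFKBIA, NFKBIZ, BIRC3 and ICAM1 counts lie in monocyte-, eosinophil- and basophil-like cells, and in blood at most 21.8% of any member's counts do.

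The genes separated when T-like cells were compared alone. NFKBIZ remained higher in the 65 T-like cells of the cord than in those of SCI blood (1.36, interval 0.74 to 1.88), as did TNFAIP3 (0.89, interval 0.51 to 1.22). For TNFAIP3 this did not hold within Treg-like cells (−0.15, not called). TRAF1, not called over all cells, was called higher in the pooled T-like cells (0.82, interval 0.33 to 1.24). The T-like classes were mixed differently: naïve T-like cells, low in TRAF1, were 4 in cord and 587 in SCI blood. Within classes the TRAF1 ratio was 0.07 in Treg-like and 0.66 in CD4 T-like cells, neither called. In CD8 T-like cells it was 1.52 and called, but not without the cell of most counts. The part of the mixture in the pooled value was not tested. NFKBIA had a ratio of 0.04 (−0.33 to 0.37) and BIRC3 of −0.10 (−0.42 to 0.18), both within counting error of blood. BCL3 and ICAM1 had 9 and 3 counts in cord T-like cells, too few to place.

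**Figure D5:**
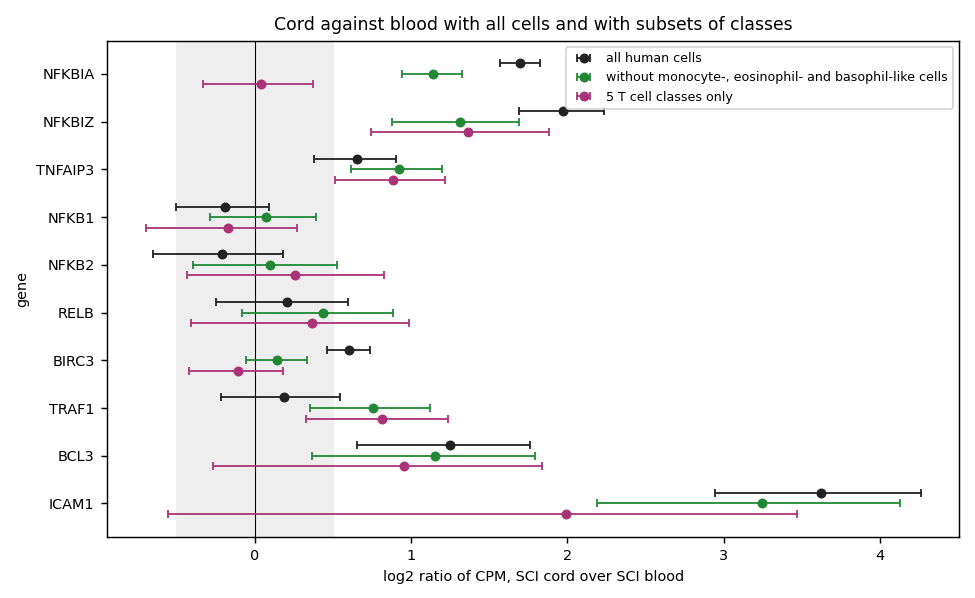
Log2 ratio of CPM, SCI cord over SCI blood, with 95% binomial intervals for counting error, over all human cells, without monocyte-, eosinophil- and basophil-like cells, and over the 5 T-like classes. NFKBIA goes from 1.70 over all cells to 0.04 in T-like cells, while NFKBIZ and TNFAIP3 stay above 0 in all 3 sets.

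Class by class, 10 of the 31 member-by-class pairs with enough counts were higher in cord and none lower, where 5.12% of all gene-by-class pairs were called higher and 3.33% lower. Of the 10, 3 were in basophil- or mast-like cells (15 in cord, 132 in SCI blood). In that class alone 6.79% of all genes tested were called higher and 8.37% lower. There NFKBIA rose from 246 to 1210 CPM (2.30, interval 1.94 to 2.65), NFKBIZ from 10.3 to 222 CPM (4.31, interval 3.04 to 6.15, from 5 and 29 counts) and BIRC3 from 124 to 521 CPM (2.07, interval 1.55 to 2.59). Without the cell of most counts these were 2.06, 4.01 and 1.99. The class was not the same mixture in cord and blood. At Leiden resolution 1.5 a basophil- or mast-like cluster led by CTSG and TPSAB1 held 12 cord and 42 SCI blood cells. Another, led by TCN1 and AKAP12, held 3 cord and 90 SCI blood cells. The part of this mixture in the 3 ratios was not tested. An NFKBIA UMI was found in 10 of the 15 cord cells, and after thinning in 46.7% of them (21.3% to 73.4%) against 15.2% (9.51% to 22.4%) in blood.

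In T-like classes the counts were small. NFKBIZ rose in Treg-like cells from 26.2 to 98.0 CPM (1.95, interval 0.88 to 2.81, 12 counts in 17 cord cells) and in CD4 T-like cells from 23.5 to 60.4 CPM (1.43, interval 0.20 to 2.33, 9 counts in 25 cord cells). TNFAIP3 rose in CD4 T-like cells from 68.6 to 154 CPM (1.20, interval 0.49 to 1.78) and in CD8 T-like cells from 128 to 320 CPM (1.35, interval 0.57 to 1.97). In Treg-like cells TNFAIP3 was at 113 CPM in SCI blood and 98.0 CPM in cord (−0.15, not called). TRAF1 and BCL3 were called higher in CD8 T-like cells (1.52, interval 0.21 to 2.45, and 2.84, interval 0.29 to 4.31, from 8 and 3 counts in 10 cord cells), and NFKBIA in Treg-like cells (0.73, interval 0.12 to 1.25). With 3 counts the BCL3 value cannot be placed: without the cell of most counts its interval was −0.76 to 4.32.

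Single cells decided several of these pairs. Without the cell of most counts 5 pairs stayed called higher: the 3 of basophil- or mast-like cells, NFKBIZ in Treg-like cells (1.60) and TNFAIP3 in CD4 T-like cells (0.87). NFKBIA in Treg-like cells then had a ratio of 0.04 and in CD4 T-like cells of −0.84 (−1.91 to −0.05), and BIRC3 in CD8 T-like cells of −1.01 (−2.58 to 0.00 after rounding, below 0). Neither of the last 2 was called with all cells.

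Other cord classes had no match of 10 cells in SCI blood or fewer than 10 cells in cord, and are given as levels. In 13 eosinophil-like cells NFKBIA was at 749 CPM, BIRC3 at 1325 CPM (168 counts, 70 of them in 1 cell), NFKBIZ at 181 CPM and TRAF1 at 0 counts. In 7 monocyte-like cells NFKBIA was at 614 CPM, NFKBIZ at 244 CPM and ICAM1 at 101 CPM, with ICAM1 UMIs in 5 of the 7. In 9 B-like cells there were 8 ICAM1 counts, all in 2 cells. The 2 unnamed cord cells held 73 NFKBIA and 19 TNFAIP3 counts.

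Cord tissue was homogenised, digested with papain and enriched on magnetic beads, and blood was not, so that tissue and handling cannot be told apart. Of 24 immediate early and heat shock genes that respond to dissociation, 12 were higher and 2 lower in cord (median 0.45), with FOS from 125 to 1358 CPM (3.44), NR4A1 from 4.30 to 72.5 CPM (4.08) and EGR1 from 4.07 to 49.9 CPM (3.62). The list summed to 13870 CPM in cord, against 12308 CPM in SCI, 12541 CPM in sham and 10761 CPM in naïve blood, with none of the 24 at 0. Within classes FOS went from 275 to 1738 CPM in basophil- or mast-like, from 240 to 2308 CPM in CD8 T-like, from 34.5 to 1062 CPM in Treg-like and from 56.2 to 664 CPM in CD4 T-like cells. The part of dissociation in the members' values was not tested.

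The rest of the pathway was read from 4 further lists. Of 10 genes of other subunits and the IkB kinase complex, 0 were called in the 3 blood comparisons, with medians of 0.13, 0.07 and −0.02. In cord 1 was higher, REL (236 CPM against 135 CPM, 0.80), which encodes the lymphoid subunit c-Rel. Lower were TAB1 (−1.16) and TAB2 (−0.93), adaptors of the kinase TAK1. The list's median in cord was −0.09.

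Of 15 other inhibitors and ubiquitin editors, TNIP3, a partner of A20, was higher in sham over naïve blood (13.7 against 8.93 CPM, 0.61) and lower in SCI over sham blood (7.64 against 13.7 CPM, −0.84). In SCI over naïve blood none was called. In cord 5 were higher and 1 lower, led by ZC3H12A (1.42), a ribonuclease that degrades cytokine transcripts, TNIP3 (1.19) and NFKBIE (1.07), which encodes IkBepsilon. The median was 0.00.

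Of 17 receptors and adaptors that lead to NF-kB, 0 were called in sham or SCI over naïve blood. TNFRSF1B, tumour necrosis factor receptor 2, was lower in SCI than in sham blood (86.6 against 133 CPM, −0.62). In cord 2 were higher, TNFRSF1A (0.94) and RIPK2 (0.86), and 5 lower, led by TRADD (−1.05). The median in cord was −0.17, so that this list did not rise as a group.

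Of 30 other genes known as NF-kB targets, 28 had enough counts in cord and SCI blood, and 18 were higher and 4 lower in cord, with a median of 1.39. Over all genes tested 15.2% were called higher and 10.6% lower in cord. CXCL8, a chemokine for neutrophils, went from 0.324 to 88.6 CPM (8.0, from 7 and 94 counts), CCL3 from 10.2 to 353 CPM (5.12) and RGS1, a regulator of chemokine receptor signals, from 12.5 to 174 CPM (3.80). CCL3 was also among the leading genes of the eosinophil-like cluster, although no list gene was used for clustering. The list was read over all cells only. Monocyte-, eosinophil- and basophil- or mast-like cells held 35.5% of the UMIs behind the CPM in cord and 3.18% in SCI blood. The part of this mixture in the list's values was not tested. In blood 27 were tested: 1 was higher and 2 lower in sham over naïve, 4 and 6 in SCI over naïve, and 2 and 6 in SCI over sham, with medians of 0.10, −0.14 and −0.07.

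Several of the targets that fell in SCI blood are genes that monocytes express. IL1B was at 5.44 CPM in naïve, 6.10 CPM in sham and 0.324 CPM in SCI blood (−3.98 over naïve, −4.14 over sham), and TNFAIP2 at 7.57, 8.43 and 1.76 CPM (−2.09 and −2.25). The monocyte markers, lower in SCI blood as given above, moved with them, and the part of the monocyte-like share in these values was not tested. CCL5 was higher in SCI than in sham blood (538 against 295 CPM, 0.87), RGS1 was higher in sham than in naïve blood (1.09), IL6 (−1.31) and CD80 (−0.94) were lower in sham than in naïve blood, and CD80 also in SCI over naïve blood (−1.21). For the dissociation list, blood gave 5 higher and 2 lower in sham over naïve (DUSP1 0.69, HSPH1 0.61, ATF3 −2.20), 6 and 1 in SCI over naïve (FOS 1.08, DNAJB1 0.89, ATF3 −2.74), and 1 and 0 in SCI over sham (FOS 0.57).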

How the data were processed

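Single human CD45+ cells from blood and injured cord of huNSG-SGM3 mice were sequenced in 4 libraries, 1 per group. The authors aligned reads with CellRanger 3.1.0 to a combined human (hg38) and mouse (mm10) reference and deposited raw UMI counts per gene and barcode, with no normalisation. Per the labels, all libraries shared 1 sequencing run. The 10 genes, the wider lists and the comparisons were chosen with earlier results of these data known.

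Barcodes with over 50% human UMIs were kept, barcodes beyond 3 MADs for UMIs, genes, mitochondrial or ribosomal share removed, and Scrublet-marked doublets (0.8% per 1000 barcodes) removed if they had over 3000 genes. Scrublet was run on the blood libraries only: SCI cord had too few cells, so no doublet was marked or removed there. Cells were clustered with scanpy 1.11.5 (2000 variable genes, 30 components, 15 neighbours, Leiden resolution 0.8) without the 10 genes and all list genes, and clusters were named from at least 3 detected markers. Counts were summed per library and class; totals left out ribosomal and mitochondrial genes, which took 25.1% to 30.9% of human UMIs and left 1061338 counts in SCI cord and 22066039 (naïve), 20642495 (sham) and 21606738 (SCI) in blood. Log2 ratios used 0.5 added counts. Intervals are 95%, and UMI counting error is all they cover. Beyond the 10 genes, the text names up to 3 genes of each list and comparison with the largest called difference and at least 100 counts, and the 5 genes most like the members.

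The ratios were tested on simulated Poisson counts with known changes, all larger than the fold used for calls. Of the changed genes 94.5%, 96.5% and 97.0% were called in sham over naïve, SCI over naïve and SCI over sham blood (199, 199 and 197 genes). In cord over SCI blood 77.0% of 191 were called, as were 1.98% of unchanged genes. Changes near that fold, counts carried by single cells and the spread between mice were not simulated, so these shares do not cover them. Alternatives changed the scaling (edgeR 4.0.16 TMM, DESeq2 1.42.0 size factors, counts per cell), filters, clustering and class weights. Work was done in R 4.3.3 and Python 3.11.15 with pandas 2.3.3, scipy 1.17.1, numpy 2.4.6 and matplotlib 3.10.9. Member sequences were not used here.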

Additional observations from a re-analysis of the deposited data

Results flagged for a closer look

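TNFAIP3 moved in opposite directions between classes in SCI over naïve blood. The log2 ratio was 0.66 in CD4 T-like cells and 0.74 in cytotoxic memory T-like cells, but −0.74 in cycling cells, each with an interval that left out 0. With 1 library per group the difference between classes was not tested. The cycling class was named by cell division markers and not by lineage. Its mixture of lineages in each library was not determined, and the part of this in its value was not tested. Without the cell of most counts the values were 0.66, 0.75 and −0.70.

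Barcodes of mouse cells (at most 10% human UMIs), which no comparison above uses, held mouse counterparts of all 10 genes at higher levels in SCI than in naïve blood. The log2 ratios were 4.62 for mouse Nfkbia, 5.01 for Nfkbiz, 3.76 for Tnfaip3, 4.80 for Nfkb1, 3.37 for Nfkb2, 3.71 for Relb, 4.92 for Birc3, 4.84 for Traf1, 5.28 for Bcl3 and 3.68 for Icam1. In the same comparison 93.9% of all mouse genes were called higher, so that these values were not particular to the 10. Haemoglobin genes took 87.5% of the mouse UMIs in mouse barcodes of naïve blood, against 23.1% in sham, 32.8% in SCI blood and 0 in cord. Among barcodes with less than 10% haemoglobin UMIs, a limit set after seeing the data, 60 remained in naïve and 829 in SCI blood, and the ratios were 0.13 (−0.27 to 0.58) for Nfkbia and between −1.12 (Nfkb2) and 0.79 (Bcl3) for the others, all with intervals that included 0.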

How the results depend on the processing

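No paired analysis was possible because each group has 1 library, and for the same reason no replicate could be left out. Over all cells, the calls of sham over naïve blood (1) became 4 with counts per cell and 0 with mean per-cell CPM, equal class weights, without plasma-like cells and in T-like classes only. SCI over naïve (2) became 1 with equal class weights and without plasma-like cells, and 0 with cells thinned to 1000 UMIs. SCI over sham (1) became 3 with counts per cell, and 0 with thinned cells, without monocyte-, eosinophil- and basophil-like cells and in T-like classes only. SCI cord over SCI blood (6) became 10 with counts per cell and 3 in T-like classes only. Counts per cell also moved the member-by-class calls, from 6 to 40 in sham over naïve, from 9 to 24 in SCI over naïve, from 7 to 13 in SCI over sham and from 10 to 16 in cord. That scaling keeps differences in total RNA and depth per cell, and moved the median of all genes by 0.35 in sham over naïve, −0.28 in SCI over sham and 1.31 in cord. Keeping ribosomal and mitochondrial genes in the total moved it by −0.12 in SCI over naïve and by 0.10 in cord, and thinning by 0.11 in cord. Called ratios changed sign for ICAM1 in SCI over naïve with thinned cells (0.36, interval −0.69 to 1.43) and for BIRC3 in cord in T-like classes only (−0.10). The cause of the first was not tested. The median share of cells with a UMI of a member was 4.25% thinned and 20.0% unthinned. The other alternatives (TMM, size factors, 90% human UMIs, no MAD filter, all marked doublets removed, no minimum count, other clustering) kept each count within 1.5 times. Removing all marked doublets took no cell out of SCI cord, which was not screened for doublets. The alternatives by class and by single cell were chosen after seeing the data. The 118 cord cells and the 18 monocyte-like cells of SCI blood limit what any ratio that rests on them can show, and intervals leave out the spread between cells and mice.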

Other observations

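The mouse cells of the injured cord gave a further set of values. In barcodes with less than 10% haemoglobin UMIs (92 in SCI cord, 829 in SCI blood), 2 of the 10 mouse counterparts were higher and 5 lower in cord, where 51.5% of 9061 mouse genes were called higher and 21.1% lower (median 0.79). Mouse Icam1 was at 163 CPM in cord and 25.6 CPM in blood (log2 ratio 2.66, interval 2.21 to 3.16), and mouse Tnfaip3 at 86.5 and 19.2 CPM (2.15, interval 1.63 to 2.75). The 5 lower were Traf1 (−2.73), Bcl3 (−2.33), Birc3 (−1.81), Nfkb2 (−0.71) and Nfkb1 (−0.65). Mouse Nfkbia was at 635 and 717 CPM (−0.17, interval −0.29 to −0.06). Without the haemoglobin limit, which was set after seeing the data, its ratio had the opposite sign (0.51, interval 0.40 to 0.62, called higher), Nfkbiz was called higher too (0.63), and Nfkb1 (0.04) and Nfkb2 (−0.02) were not called, where 66.2% of all mouse genes were higher and 14.3% lower. Cell classes of the mouse barcodes were not determined, so that their part in these values was not tested.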
